A study of Mus musculus with 6 samples.

Results

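The long noncoding RNA (lncRNA) genes described here are the 70 on mouse autosomes that were well expressed over MA-10 cells and the Star-deleted STARKO1 cells derived from them. A gene was taken where the deposited table gave it the type lncRNA, where it lay on chromosomes 1 to 19 and where its estimated read count averaged at least 100 over the 6 libraries. Small nucleolar RNA hosts of the Snhg series, Gas5 and the imprinted lncRNAs Meg3, Rian, Mirg, H19, Kcnq1ot1 and Airn were left out by name. These conditions kept 70 of 1040 autosomal lncRNA rows, in a table of 14774 genes. The genes were thus chosen by their average count over both cell lines, whose median among the 70 was 253 counts, between 100.5 and 726601. Of the 70 genes, 51 also averaged at least 100 counts in each cell line alone, 11 reached that level only in MA-10 cells and 8 only in STARKO1 cells. A gene that reached it in only 1 line could enter because of its difference between the lines, which bears on every count of differing genes below.

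MA-10 is a mouse tumor Leydig cell line that makes steroids, and the labels describe the 3 MA-10 libraries as untreated wild-type cells. STARKO1 is a line grown from 1 sorted MA-10 cell after CRISPR/Cas9 cutting of Star, the gene of the steroidogenic acute regulatory protein that moves cholesterol into mitochondria. Its 3 libraries were also from untreated cells, and a single clone cannot separate the loss of Star from other features of that clone. The labels do not say whether the 3 libraries of a line came from separate cultures, so p values measure the spread between these libraries, which may be technical. The comparison asks which transcripts differ between cells with and without STAR.

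Long noncoding RNAs are transcripts of RNA polymerase II, and in a few cases of other polymerases, that are not translated into a long protein. Some stay in the nucleus and organize bodies there, such as Malat1 in nuclear speckles and Neat1 in paraspeckles. Others act on the gene beside them, bind proteins in the cytoplasm, or are processed into microRNAs (miRNAs) or small nucleolar RNAs (snoRNAs). Many start within a short distance of a protein-coding gene on the opposite strand and share its promoter. Total RNA was sequenced here, so transcripts without a poly(A) tail were read as well.

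The totals were between 14114351 and 19530062 rounded counts per library, and levels are given in CPM, the count scaled to a common library size after TMM normalization in edgeR. Star, the targeted gene, was at 60.9, 109 and 61.4 CPM in the MA-10 libraries, here and below in the order of replicates 1, 2 and 3, and at 2.02 to 2.71 CPM in the STARKO1 libraries. MA-10 replicate 1 stood apart from the other 2 MA-10 libraries: over 8538 genes its log2 levels had a Pearson correlation of 0.802 and 0.874 with MA-10 replicates 2 and 3, and of 0.949 to 0.955 with the STARKO1 libraries. The 7SL RNA genes Rn7s1 and Rn7s2 made up 1.81%, 14.4% and 6.63% of the MA-10 libraries and 1.82% to 2.37% of the STARKO1 libraries. All 10 Leydig cell markers on the list were in the table, among them Cyp11a1, Lhcgr and Nr5a1. Of markers of other testis cells, 3 of 6 for Sertoli cells, 1 of 6 for germ cells, 2 of 5 for macrophages, 2 of 4 for endothelium and 2 of 4 for peritubular myoid cells were in the table, and Sox9, Amh, Fshr, Ptprc, Adgre1, Kdr, Tie1, Acta2 and Cnn1 were among those not listed. The summed level of the 2 endothelial markers was 26.4 to 41.5 CPM in MA-10 and 118 to 124 CPM in STARKO1, and that of the 2 myoid markers 13.0 to 20.5 and 1.72 to 2.59 CPM. The 3 Sertoli markers summed to 337 to 529 and 574 to 597 CPM, and the 10 Leydig markers, Star included, to 1622 to 2153 and 1505 to 1552 CPM, while the germ cell and macrophage sums overlapped between the lines. The part of these differences in the lncRNA results was not tested.

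Of the 69 lncRNAs that passed the filter on low counts, 8 differed between the cell lines at an adjusted p under 0.05 in edgeR's quasi-likelihood test. Lower in STARKO1 were 7 of them, A330069E16Rik, A830082K12Rik, 5430416N02Rik, 1110046J04Rik, Zfas1, Malat1 and Neat1. The other, Gm20939, was higher. The share of calls was 11.6%, against 9.04% of all 11939 genes tested. In the lower direction it was 10.1% against 4.74%, and in the higher direction 1.45% against 4.3%. Of the 7 lower genes, 4 (A330069E16Rik, A830082K12Rik, 1110046J04Rik and Zfas1) averaged at least 100 counts only in MA-10, and Gm20939 did so only in STARKO1, so these 5 owed their inclusion to the line in which they were high. The other 3, 5430416N02Rik, Malat1 and Neat1, averaged at least 100 counts in both lines. As in any bulk RNA measurement, fewer cells with a transcript and less of it per cell cannot be told apart.

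The fitted log2 fold changes ran from -4.22 for A330069E16Rik to 1.84 for Gm42743, with a median of -0.22 over the 69 lncRNAs and of -0.05 over all genes tested. Values were negative for 40 lncRNAs and positive for 29. At an unadjusted p under 0.05, 33 lncRNAs differed, 25 lower and 8 higher, while 37.6% of all genes did so. The 6 libraries did not overlap between the lines for 27 lncRNAs (39.1%), 15 lower and 12 higher, against 42.5% of all genes. The calls depended on single libraries. Without MA-10 replicate 1, 54 of 70 lncRNAs were called (22 higher and 32 lower, against 65.7% of all genes), and all 8 were among them. Without MA-10 replicate 2 or 3, 2 and 1 were called, against 4.19% and 1.49% of all genes. Without STARKO1 replicate 1, 2 or 3, none was called by edgeR (0.73%, 1.11% and 0.76% of all genes). In these fits 24, 25 and 21 of 70 lncRNAs had an unadjusted p under 0.05. So did 2698 of 12196, 2751 of 12195 and 2626 of 12235 of all genes. With MA-10 replicate 1 alone against STARKO1, a comparison added after the data were seen, 28 were called (13 higher and 15 lower, against 40.5% of all genes). In that fit the spread comes from the 3 STARKO1 libraries alone and the lone MA-10 library is assumed to vary like them, so its calls compare 1 library with STARKO1, and below only its log2 fold changes are given, as a description. Over all 6 libraries, DESeq2 called 29, 7 higher and 22 lower (28.4% of all genes). Scaling by library size alone called 2 (2.76%), Gm20939 higher and 1110046J04Rik lower, and under it Malat1 (-0.91, edgeR adjusted p = 0.0501) and Neat1 (-0.75, edgeR adjusted p = 0.128) were not called, while the median of all genes moved to 0.38. A stricter filter of 10 counts in each library called 5 (6.44%), and a replicate block called 0 (1.96%). With the block, 26 lncRNAs and 3692 of 11939 genes had an unadjusted p under 0.05 in edgeR.

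**Figure D1:**
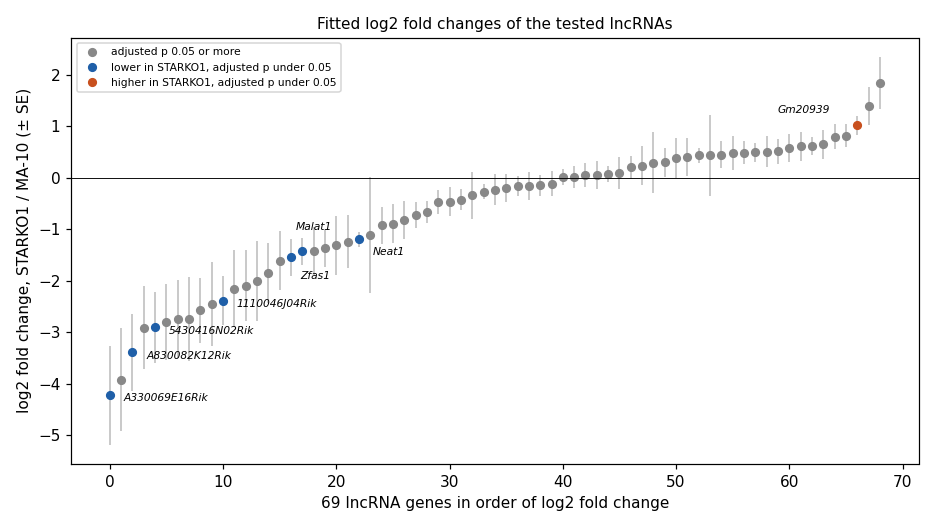
Log2 fold change of STARKO1 over MA-10 for each of the 69 tested lncRNAs, in order, with the SE as a vertical line. The points run from -4.22 to 1.84, the 7 lncRNAs called lower are blue, and Gm20939, called higher, is orange.

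Malat1 and Neat1, the pair on the list of nuclear architecture RNAs, were both lower in STARKO1, and they lie next to each other on chromosome 19 (GRCm38, chr19:5795690-5802672 and chr19:5824708-5845478, both on the minus strand). Malat1 is an abundant RNA of nuclear speckles, where splicing factors collect. It reached 657, 1134 and 1058 CPM in MA-10 and 347, 338 and 373 CPM in STARKO1. All 3 MA-10 libraries were above all STARKO1 libraries, and replicate 1 was the lowest of the MA-10 libraries. The means were 950 ± 256 and 353 ± 18.1 CPM (SD, n = 3 each), a log2 fold change of -1.43 ± 0.26 (SE, edgeR adjusted p = 0.0265). The call held without MA-10 replicate 1 (edgeR adjusted p = 2.34e-05) and was lost without MA-10 replicate 2 or 3 or any one STARKO1 library (edgeR adjusted p from 0.0520 to 0.165), while the log2 fold change stayed between -1.54 and -1.28.

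Neat1 is the scaffold on which paraspeckles, nuclear bodies that hold back some RNAs and proteins, are built. It measured 44.3, 46.0 and 52.7 CPM in MA-10 and 22.2, 19.6 and 20.8 CPM in STARKO1. Unlike the other lncRNAs called lower, it was at nearly the same level in all 3 MA-10 libraries, and the MA-10 mean was 2.29 times the STARKO1 mean. Its log2 fold change was -1.19 ± 0.15 (SE, edgeR adjusted p = 0.00856), and this was the only call left at an adjusted p under 0.01. It held without any one MA-10 library and was lost without any one STARKO1 library (edgeR adjusted p = 0.0908, 0.0854 and 0.0837 without replicates 1, 2 and 3). Against MA-10 replicate 1 alone the value was -1.08. Per kilobase of exon, Malat1 stood at 136 CPM in MA-10 and 50.6 in STARKO1, and Neat1 at 2.30 and 1.00. The length used was that of all annotated exons joined, 6983 bases for Malat1 and 20771 for Neat1, whichever transcripts were present.

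**Figure D2:**
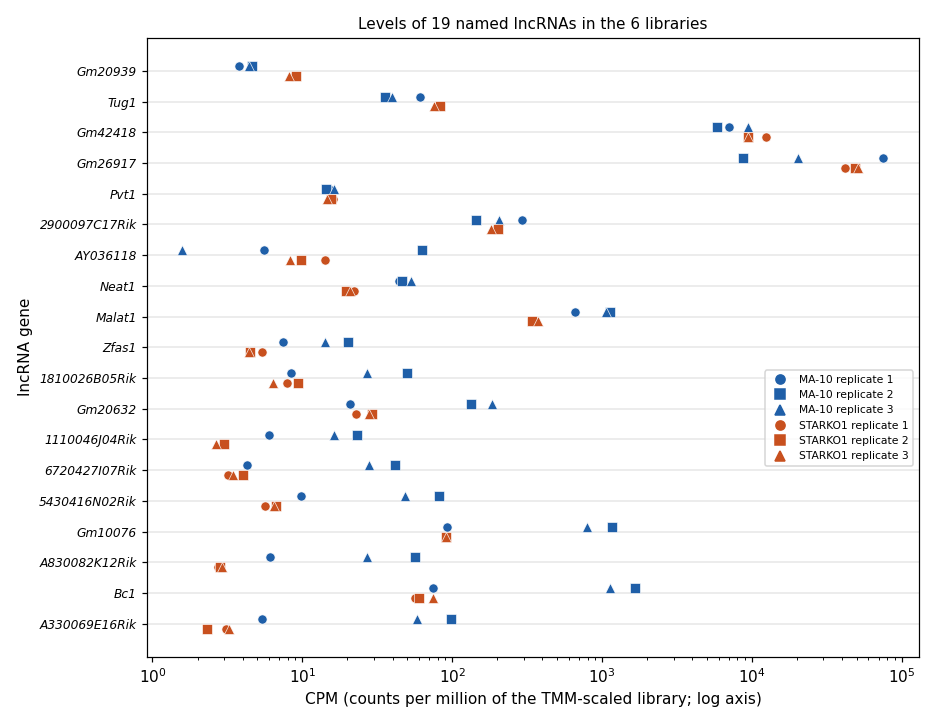
Level in CPM (log axis) of the 19 named lncRNAs in each of the 6 libraries, with MA-10 in blue, STARKO1 in orange and a symbol for each replicate number. The 3 STARKO1 symbols lie close together in most rows, while the MA-10 circle (replicate 1) of genes such as Bc1, Gm10076 and 6720427I07Rik lies near the STARKO1 symbols and the other 2 MA-10 symbols lie to the right.

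The largest fitted decreases among the called genes were in lncRNAs with few counts in STARKO1. A330069E16Rik (chr2:91237146-91238352, plus strand) is a transcript of 2 exons that starts beside the DNA repair gene Ddb2. It measured 5.38, 98.6 and 58.3 CPM in MA-10 and 3.10, 2.30 and 3.26 CPM in STARKO1. MA-10 replicate 1 was above every STARKO1 library but was nearer to them than to the other MA-10 libraries, which averaged 14.6 times its level. The log2 fold change was -4.22 ± 0.96 (SE, edgeR adjusted p = 0.0435), and it was -0.89 against MA-10 replicate 1 alone.

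A830082K12Rik (chr13:78198017-78279391, plus strand) starts beside Nr2f1, the gene of the nuclear receptor COUP-TFI. Its levels were 6.13, 56.1 and 27.2 CPM in MA-10 and 2.75, 2.83 and 2.92 CPM in STARKO1. Here too replicate 1 was the lowest MA-10 library and was above every STARKO1 library. The log2 fold change was -1.11 against replicate 1 alone and -3.39 ± 0.74 over all libraries (SE, edgeR adjusted p = 0.0405). 5430416N02Rik (chr5:100420842-100429535, minus strand) measured 9.74, 81.7 and 48.8 CPM in MA-10 and 5.59, 6.66 and 6.46 CPM in STARKO1, with a log2 fold change of -2.90 ± 0.69 (SE, edgeR adjusted p = 0.0489). It showed the same order of libraries, with a log2 fold change of -0.65 against replicate 1 alone.

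1110046J04Rik (chr13:33935567-33960181, plus strand) is antisense to Serpinb6a, a serine protease inhibitor gene. It had 6.01, 23.2 and 16.4 CPM in MA-10 and 3.01, 3.01 and 2.64 CPM in STARKO1. No library overlapped, and the log2 fold change was -2.39 ± 0.48 (SE, edgeR adjusted p = 0.0328), or -1.05 against replicate 1 alone. Whether the counting used the strand is not given in the sources used here, so reads of an antisense pair cannot be told apart, and 19.2% of the 31-base words of this lncRNA also occur in Serpinb6a transcripts.

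Zfas1 (chr2:167062934-167065862, plus strand) starts opposite Znfx1 and hosts Snord12 and 2 more snoRNAs in its span. It measured 7.40, 20.1 and 14.1 CPM in MA-10 and 5.35, 4.47 and 4.38 CPM in STARKO1. The lowest MA-10 library, replicate 1, was above the highest STARKO1 library. The log2 fold change was -1.54 ± 0.36 (SE, edgeR adjusted p = 0.0483) and -0.63 against replicate 1 alone. For A330069E16Rik, A830082K12Rik, 5430416N02Rik, 1110046J04Rik and Zfas1 the call was lost without MA-10 replicate 2 or 3 or any one STARKO1 library, with edgeR adjusted p up to 0.2, and it held without MA-10 replicate 1.

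Gm20939 was the only lncRNA called higher in STARKO1. RefSeq gives this gene (chr17:94864918-94878321, plus strand) the type protein-coding, and 9.51% of its 31-base words also occur in Zfp932, a zinc finger gene. It measured 3.78, 4.60 and 4.40 CPM in MA-10 and 8.78, 9.14 and 8.09 CPM in STARKO1. The libraries of each line lay close together, and replicate 1 of MA-10 was with the other 2. The mean rose 2.03-fold, a log2 fold change of 1.03 ± 0.18 (SE, edgeR adjusted p = 0.0247). The call was lost without MA-10 replicate 3 (edgeR adjusted p = 0.0870) or without STARKO1 replicate 1, 2 or 3 (edgeR adjusted p = 0.123, 0.146 and 0.129).

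The promoter windows of 4 called genes are shown because their start sites differ in kind. Each runs from 250 bases before to 50 bases after the start given by RefSeq (GRCm38.p6), 5′ to 3′ on the gene's strand, with every CpG dinucleotide in capitals. The windows are chr2:91236896-91237195 (plus) for A330069E16Rik, chr2:167062684-167062983 (plus) for Zfas1, chr19:5802623-5802922 (minus) for Malat1 and chr17:94864651-94864950 (plus) for Gm20939.
A330069E16Rik: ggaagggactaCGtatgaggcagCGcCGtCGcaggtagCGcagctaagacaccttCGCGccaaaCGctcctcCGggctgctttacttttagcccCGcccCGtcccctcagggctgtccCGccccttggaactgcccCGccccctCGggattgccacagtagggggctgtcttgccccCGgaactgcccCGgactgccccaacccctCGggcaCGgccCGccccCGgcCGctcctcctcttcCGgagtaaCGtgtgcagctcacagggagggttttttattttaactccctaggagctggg
Zfas1: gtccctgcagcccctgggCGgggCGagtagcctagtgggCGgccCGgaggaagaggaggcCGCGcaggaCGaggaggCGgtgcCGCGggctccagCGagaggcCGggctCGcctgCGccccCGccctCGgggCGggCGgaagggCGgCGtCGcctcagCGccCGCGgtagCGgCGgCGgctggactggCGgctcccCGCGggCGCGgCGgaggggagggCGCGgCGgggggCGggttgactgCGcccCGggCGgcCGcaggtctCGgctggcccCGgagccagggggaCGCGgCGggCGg
Malat1: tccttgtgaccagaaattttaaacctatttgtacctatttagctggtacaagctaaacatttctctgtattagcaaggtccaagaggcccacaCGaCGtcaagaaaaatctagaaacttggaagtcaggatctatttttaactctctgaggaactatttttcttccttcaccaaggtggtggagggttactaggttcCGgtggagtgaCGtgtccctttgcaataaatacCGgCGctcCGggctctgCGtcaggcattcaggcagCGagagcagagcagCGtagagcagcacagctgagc
Gm20939: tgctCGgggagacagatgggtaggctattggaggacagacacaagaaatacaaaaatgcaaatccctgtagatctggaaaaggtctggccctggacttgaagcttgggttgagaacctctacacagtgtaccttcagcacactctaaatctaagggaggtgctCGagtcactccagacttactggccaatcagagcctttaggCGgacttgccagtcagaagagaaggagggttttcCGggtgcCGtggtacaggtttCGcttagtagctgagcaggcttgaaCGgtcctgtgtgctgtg
The windows held 23, 47, 10 and 7 CpGs, in the order above. A330069E16Rik and Zfas1, with the most CpGs of these 4, start within 164 and 81 bases of a protein-coding gene's start on the other strand, as described further on. The windows of the called genes 1110046J04Rik and 5430416N02Rik, not shown, held 22 CpGs each. Neither gene had a divergent protein-coding neighbor among the genes measured. Over the 36 lncRNAs with a RefSeq window within 1 kb of the deposited start, the median was 15.5 CpGs, against 7 over 32851 windows of all genes. Those windows include genes not measured here, while the lncRNAs were chosen for their level, so the 2 sets are unlike.

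Of the 32 symbols on the list of characterised regulatory lncRNAs, 15 were in the table and 5 were well expressed by the rule above. Of these, 1 was called, Zfas1. Tug1 is a widely expressed lncRNA found in nucleus and cytoplasm (chr11:3639785-3649673, minus strand). Its level was 60.5, 35.7 and 39.6 CPM in MA-10 and 83.4, 82.3 and 75.1 CPM in STARKO1. Every STARKO1 library was above every MA-10 library, with replicate 1 the nearest, and the log2 fold change was 0.82 ± 0.23 (SE, edgeR adjusted p = 0.0630). It passed the threshold without MA-10 replicate 1 (1.18, edgeR adjusted p = 9.48e-05), and the value against replicate 1 alone was 0.41.

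2900097C17Rik is the mouse Norad gene, whose RNA binds Pumilio proteins and limits their action on mRNAs (chr2:156388065-156392979, minus strand). Its levels were 293, 144 and 204 CPM in MA-10 and 195, 202 and 182 CPM in STARKO1. The lines overlapped, and the MA-10 libraries lay on both sides of STARKO1, with a log2 fold change of -0.15 ± 0.27 (SE, edgeR adjusted p = 0.700). Against replicate 1 alone the value was -0.60, and without replicate 1 it was 0.23. The 4915-base transcript holds 11 copies of the Pumilio motif TGTANATA, namely 6 TGTATATA, 3 TGTACATA and 2 TGTAAATA. At least 11 copies were found in 7 of the 40427 GENCODE genes with a transcript of 500 bases or more, and any copy in 20.8%. A share of 43.9% of its 31-base words also occurs in Gm7292, so its count may include reads of that gene.

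Pvt1, the lncRNA beside Myc, had 15.0, 14.4 and 16.2 CPM in MA-10 and 16.0, 15.4 and 14.7 CPM in STARKO1. The ranges overlapped nearly in full, and the log2 fold change was 0.02 ± 0.15 (SE, edgeR adjusted p = 0.935). 1810026B05Rik is the mouse Chaserr gene, an lncRNA that restrains the chromatin remodeler gene Chd2 beside it. It had 8.40, 49.7 and 26.9 CPM in MA-10 and 7.85, 9.30 and 6.41 CPM in STARKO1. Replicate 1 lay inside the STARKO1 range and the other MA-10 libraries far above it, and the log2 fold change of -1.85 ± 0.58 did not pass the test (SE, edgeR adjusted p = 0.0785).

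The list of miRNA host lncRNAs held 14 symbols, of which 7 were in the table. With lncRNAs whose span holds a miRNA gene on the same strand, 3 of the 70 genes belonged to it (6720427I07Rik, Gm20632 and Pvt1), and edgeR called none of them, against 2 in DESeq2. 6720427I07Rik (chr13:48532905-48546500, minus strand) spans the let-7a-1, let-7f-1 and let-7d genes. The let-7 family holds back growth-promoting mRNAs in differentiated cells. The host measured 4.30, 41.6 and 27.7 CPM in MA-10 and 3.18, 4.01 and 3.43 CPM in STARKO1. MA-10 replicate 1 was barely above the highest STARKO1 library, and the log2 fold change was -2.79 ± 0.74 (SE, edgeR adjusted p = 0.0599). It was -3.20 without replicate 1 (edgeR adjusted p = 1.31e-05) and -0.29 against replicate 1 alone. The 6 mature miRNAs in its span are shown because the seed, bases 2 to 8 in capitals, sets which mRNAs they pair with (RefSeq, GRCm38.p6, chromosome 13, minus strand).
let-7a-5p: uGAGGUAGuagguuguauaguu
let-7f-5p: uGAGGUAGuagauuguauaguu
let-7d-5p: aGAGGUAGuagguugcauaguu
let-7a-1-3p: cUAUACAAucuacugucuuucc
let-7f-1-3p: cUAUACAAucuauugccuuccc
let-7d-3p: cUAUACGAccugcugccuuucu
The 3 miRNAs of the 5p arm share 1 seed, let-7a-1-3p and let-7f-1-3p share another, and let-7d-3p has its own. The libraries measured the host transcript and not the mature miRNAs.

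Gm20632 (chr3:96239393-96241819, plus strand), a transcript of 1 exon in the histone cluster of chromosome 3, spans the annotated miRNA Gm47311. It measured 20.7, 133 and 186 CPM in MA-10 and 22.9, 29.2 and 27.7 CPM in STARKO1. Replicate 1 was the lowest of all 6 libraries. The log2 fold change was -2.09 ± 0.69 over all libraries (SE, edgeR adjusted p = 0.0849), and it turned to 0.36 against replicate 1 alone. A share of 22.4% of its 31-base words also occurs in the histone gene Hist2h2aa1.

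The 3 lncRNAs annotated over ribosomal RNA repeat sequence on chromosome 17 held most of the counts of the 70 genes in every library, and none was called. Gm26917 (chr17:39843013-39846341, plus strand) had 75501, 8733 and 20208 CPM in MA-10 and 41719, 48686 and 51423 CPM in STARKO1. The MA-10 libraries spanned more than the whole STARKO1 range on both sides, and the log2 fold change was 0.44 ± 0.78 (SE, edgeR adjusted p = 0.693). Without replicate 1 it was 1.79 (edgeR adjusted p = 0.00279), and against replicate 1 alone it was -0.67.

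Gm42418 (chr17:39846958-39848788, plus strand), beside it, was at 7081, 5829 and 9380 CPM in MA-10 and 12352, 9402 and 9428 CPM in STARKO1, without overlap, and its log2 fold change was 0.48 ± 0.34 (SE, edgeR adjusted p = 0.311). AY036118 lies within Gm42418 on the opposite strand and shares all of its 31-base words with it. Its levels of 5.51, 63.0 and 1.59 CPM in MA-10 and 14.1, 9.86 and 8.33 CPM in STARKO1 gave a log2 fold change of -1.11 ± 1.13 (SE, edgeR adjusted p = 0.483), which turned to 1.56 without MA-10 replicate 2. Together the 3 genes made up 9.53%, 0.956% and 2.38% of the MA-10 libraries and 6.44% to 7.13% of STARKO1. The share of the remaining lncRNAs of the set was 0.274%, 0.494% and 0.433% in MA-10 and 0.228% to 0.234% in STARKO1.

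Bc1 was the shortest of the 70 genes and among the 5 most abundant. It is an RNA polymerase III transcript that arose from an alanine tRNA and is known from the cytoplasm of neurons, where it dampens translation. It measured 74.4, 1671 and 1126 CPM in MA-10 and 56.2, 60.1 and 74.1 CPM in STARKO1. MA-10 replicates 2 and 3 averaged 18.8 times replicate 1, and replicate 1 was level with the highest STARKO1 library. The log2 fold change was -3.91 ± 0.99 (SE, edgeR adjusted p = 0.0555), -4.37 without replicate 1 (edgeR adjusted p = 8.62e-06) and -0.23 against replicate 1 alone. The whole transcript of 168 bases is shown (GRCm38, chr7:144914470-144914637, plus strand), with its longest run of A, 23 bases, in capitals.
Bc1: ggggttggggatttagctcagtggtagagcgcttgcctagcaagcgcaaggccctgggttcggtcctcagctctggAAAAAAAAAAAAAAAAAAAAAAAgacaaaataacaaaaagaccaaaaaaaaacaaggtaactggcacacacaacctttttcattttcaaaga
The run lies between the tRNA-like 5′ part and the unique 3′ part. A share of 42.0% of its 31-base words occurs in transcripts of other genes such as Lrrc17 and Akap5, since related repeats are scattered through rodent genomes.

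Gm10076 (chr14:105681828-105682211, plus strand), a pseudogene in RefSeq, followed the same order of libraries. It had 92.4, 1164 and 788 CPM in MA-10 and 90.9, 91.3 and 90.7 CPM in STARKO1. Replicate 1 was close to all 3 STARKO1 libraries, and the log2 fold change was -2.90 ± 0.80 over all libraries (SE, edgeR adjusted p = 0.0628). A share of 82.2% of its 31-base words occurs in Rpl41, the gene of a ribosomal protein, which measured 281, 1130 and 827 CPM in MA-10 and 276 to 324 CPM in STARKO1.

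Gm28037 did not pass the filter on low counts and has no test. Its estimated counts were 2.2, 9205 and 3121 in MA-10 and 6.9, 3.1 and 2.1 in STARKO1, so that 2 libraries alone carried it over the minimum. It overlaps Rpl24 on the same strand and shares 78.3% of its 31-base words with it. Rpl24 itself measured 224, 1085 and 763 CPM in MA-10 and 189 to 204 CPM in STARKO1. How the counting program divided reads between them cannot be undone.

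The lncRNAs tested and not called were 33 with a negative and 28 with a positive value. The genes named in this paragraph and the next were chosen after their values were seen. Among the former, 2410006H16Rik, which hosts Snord49a, Snord49b and Snord65, had 52.2, 356 and 243 CPM in MA-10 and 34.2 to 39.8 CPM in STARKO1, without overlap (log2 fold change -2.57, edgeR adjusted p = 0.0516). 1110038B12Rik, the host of Snord52, had 10.9, 44.5 and 22.3 CPM in MA-10 and 9.55 to 9.78 CPM in STARKO1, again without overlap (log2 fold change -1.41, edgeR adjusted p = 0.0843). With Zfas1, the 3 lncRNAs that host named Snord genes were lower in STARKO1 with no overlap between the lines, which 21% of all genes were too. AI506816, whose span holds Mir3096, annotated as a snoRNA on the same strand, went the other way. It had 100, 58.1 and 59.4 CPM in MA-10 and 122 to 132 CPM in STARKO1 (log2 fold change 0.81, edgeR adjusted p = 0.0736). This was higher without overlap, as 21.5% of all genes were.

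Lockd, an lncRNA downstream of the cell cycle inhibitor gene Cdkn1b, had 14.3, 89.1 and 53.7 CPM in MA-10 and 16.2 to 17.7 CPM in STARKO1, so that replicate 1 was below all STARKO1 libraries. Of the 3 lncRNAs with opposite-strand symbols, Foxd2os (log2 fold change -1.36, edgeR adjusted p = 0.0618), Sp3os (-1.31, edgeR adjusted p = 0.147) and Brip1os (0.51, edgeR adjusted p = 0.250), none was called. On the positive side, Gm42743 had 6.35, 1.56 and 2.03 CPM in MA-10 and 10.5, 13.4 and 12.9 CPM in STARKO1 (log2 fold change 1.84, edgeR adjusted p = 0.0620). AC132253.9 had 8.53, 3.30 and 3.75 CPM and 14.3, 14.9 and 12.5 CPM (log2 fold change 1.40, edgeR adjusted p = 0.0595). Both were without overlap, with replicate 1 the highest of the MA-10 libraries. AC132253.9 shares 67.4% of its 31-base words with Gm47547 and 53.8% with Gm49083, and the latter had log2 fold changes of 0.30 and 0.38.

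MA-10 replicate 1 stood nearer to STARKO1 for most of the lncRNAs, as it did for most genes tested. Over the 69 lncRNAs, replicate 1 was below both other MA-10 libraries for 39 and above both for 25. Its level was nearer to the STARKO1 mean than to the mean of MA-10 replicates 2 and 3 for 56 of 69 lncRNAs (81.2%) and for 69.9% of all genes tested. The median coefficient of variation of the lncRNAs was 43.9% in MA-10 and 8.44% in STARKO1, and over all genes it was 30.0% and 6.46%. For 26 lncRNAs the mean of replicates 2 and 3 was more than 2 times replicate 1, and 5 of these were called. For this count, and for replicate 1 lying below or above both others, the shares of all genes were not counted. All 8 called lncRNAs kept their direction against replicate 1 alone, a comparison with 1 MA-10 library. Their values in that comparison were smaller than over all libraries for the 7 lower genes, from -0.63 for Zfas1 to -1.11 for A830082K12Rik, and 1.20 for Gm20939. The labels give no preparation date, and what set replicate 1 apart was not tested.

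**Figure D3:**
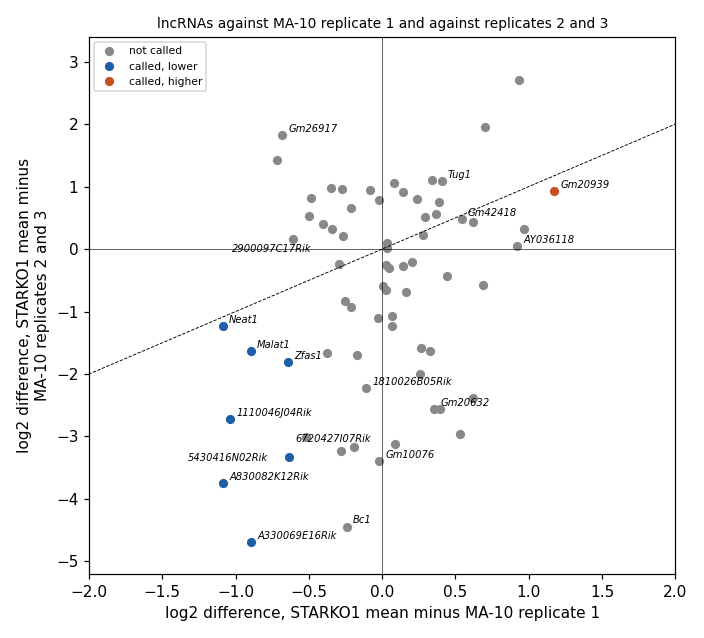
Log2 difference of the STARKO1 mean from MA-10 replicate 1 (horizontal axis) and from the mean of MA-10 replicates 2 and 3 (vertical axis) for each tested lncRNA, with equal differences on the dashed line. Points such as Bc1 and Gm10076 lie near 0 on the horizontal axis and far below 0 on the vertical axis, while Neat1 lies near the dashed line and Gm20939 is above 0 on both axes.

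Of the 70 lncRNAs, 29 had a protein-coding gene that started within 5 kb on the other strand (divergent) or that overlapped them on the other strand (antisense) or on the same strand (sense). Of the 36 pairs with the neighbor in the table, 34 neighbors were tested, and 4 were called higher and 1 lower in STARKO1, where 4.3% of all genes were called higher and 4.74% lower. Morc2a, a chromatin ATPase gene that starts 482 bases from Tug1, had 42.0, 33.8 and 37.2 CPM in MA-10 and 82.2, 79.2 and 86.2 CPM in STARKO1. The lines were well apart, and replicate 1 was with the other MA-10 libraries (log2 fold change 1.13 ± 0.15, SE, edgeR adjusted p = 0.0107). Tug1 and Morc2a were both higher in every STARKO1 library, though Tug1 did not pass the test.

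Chd2, the gene downstream of Chaserr, was lower in STARKO1. It measured 138, 141 and 217 CPM in MA-10 and 70.4, 69.8 and 65.6 CPM in STARKO1 (log2 fold change -1.27 ± 0.22, SE, edgeR adjusted p = 0.0235). Replicate 1 was well above STARKO1 for Chd2, while for Chaserr it was within the STARKO1 range. The annotated spans overlap on the same strand, and 45.5% of the 31-base words of 1810026B05Rik also occur in Chd2 transcripts.

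The other 3 called neighbors were Klhdc4 beside Gm42047 (1.16, edgeR adjusted p = 0.00870), Ccnyl1, a cyclin-like gene, beside 2810408I11Rik (0.81, edgeR adjusted p = 0.0401) and the histone gene Hist2h2bb, which overlaps Gm42743 (1.10, edgeR adjusted p = 0.0425). The lncRNA partners were at 0.06, -0.46 and 1.84 on the log2 scale and were not called. The measured neighbors of the called lncRNAs were not called, while 9.04% of all genes tested were. Ddb2 beside A330069E16Rik was at -0.25 (edgeR adjusted p = 0.415) and Nr2f1 beside A830082K12Rik at -0.61 (edgeR adjusted p = 0.229). Serpinb6a was at -0.58 (edgeR adjusted p = 0.0820) and Znfx1 beside Zfas1 at 0.11 (edgeR adjusted p = 0.722). Serpinb6a had 979, 956 and 1029 CPM in MA-10 and 647, 667 and 666 CPM in STARKO1. It was thus lower without overlap, as its partner 1110046J04Rik was, and as 21% of all genes were. Ddb2, a DNA damage recognition gene whose start lies 164 bases from that of A330069E16Rik, had 6.47, 6.16 and 5.37 CPM in MA-10 and 5.59, 5.54 and 4.05 CPM in STARKO1. It overlapped between the lines, and it did not show the low replicate 1 of its partner. Over the 32 pairs with both genes tested, 24 had the same sign, and over the 15 divergent pairs with starts within 1 kb, 10 had. Some pairs overlap and share sequence, and the agreement between other pairs of genes was not counted. Among the 22 divergent pairs with a tested neighbor, 3 neighbors were called higher, and with starts within 1 kb these were 2 of 15, against 4.3% of all genes.

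**Figure D4:**
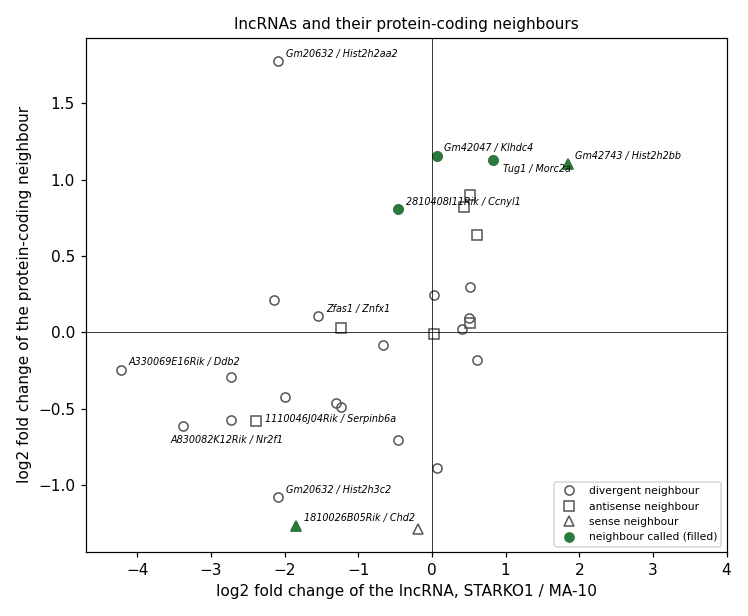
Log2 fold change of each lncRNA (horizontal axis) and of its protein-coding neighbor (vertical axis), with a symbol for the arrangement and filled symbols for called neighbors. The lncRNAs furthest to the left, A330069E16Rik and A830082K12Rik, have neighbors at -0.25 and -0.61, and the called neighbors lie at 0.81 to 1.16 or, for Chd2, at -1.27.

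GENCODE gives 37 of the 70 genes the type lincRNA, 20 processed transcript, 10 antisense and 3 bidirectional promoter lncRNA. RefSeq holds 47 of them by symbol, with 39 as lncRNA, 7 as protein-coding (among them Ptpmt1, Ifi30, Trerf1 and Gm20939) and 1 as a pseudogene. Their exonic length ran from 168 bases for Bc1 to 20771 for Neat1, with a median of 2977.5 bases, and 7 had a single exon. A non-whole estimated count, which shows that reads were divided between features, was present for 30 of the 70.

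The fold changes differed in level with exonic length. Among the 23 shortest genes (168 to 2359 bases) the median log2 fold change was -0.72 and 16 values were negative. Among the next 23 (2385 to 4479 bases) the median was -0.19, and among the 23 longest (4601 to 20771 bases) it was 0.02 with 11 negative. Over all tested genes in these length ranges the medians were -0.28, -0.09 and 0.03, with 1636 of 2704 negative among the shortest. The same order was present within MA-10, where the median log2 difference of replicate 1 from replicates 2 and 3 was -0.88, -0.40 and 0.05 from the shortest to the longest group. Over all tested genes the medians of that difference were -0.35, -0.04 and 0.19. The median log2 difference of the STARKO1 mean from MA-10 replicate 1 was 0.09, 0.07 and -0.11 for the lncRNAs in the same order, and 0.03, 0.01 and -0.02 for all genes. Its part in the differences between the lines was not tested beyond offsets for gene length, with which 11 lncRNAs were called (2 higher and 9 lower, against 10.6% of all genes), among them Bc1 (-4.04, edgeR adjusted p = 0.0495) and Tug1 (0.75, edgeR adjusted p = 0.0477).

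**Figure D5:**
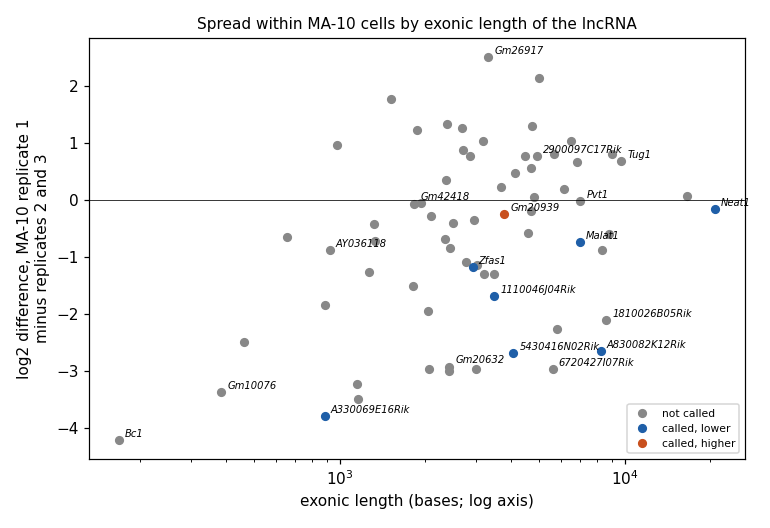
Log2 difference of MA-10 replicate 1 from the mean of MA-10 replicates 2 and 3 against exonic length (log axis) for the 69 tested lncRNAs. Bc1 and Gm10076 lie at the lower left, and Neat1 and Pvt1 lie near 0. All of the lncRNAs called lower lie below 0, from -3.79 for A330069E16Rik to -0.15 for Neat1.

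The promoter windows of the 36 lncRNAs were searched on both strands for 3 motifs. The windows of all genes set beside them were again not limited to expressed genes. AAGGTCA, the site bound by the Leydig cell factor SF-1, was in 2 windows (5.56%) and in 4.72% of all windows. TGACGTCA, the cAMP response element, was in 2 windows, those of 4930558J18Rik and B230354K17Rik (5.56%, against 1.79% of all windows). TATAAA was in 3 (8.33%, against 13.6%). Neither lncRNA with a cAMP response element was called (log2 fold change -2.73, edgeR adjusted p = 0.0633, and 0.50, edgeR adjusted p = 0.104).

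The 10 lncRNAs of the Snhg series and the other names left out by the rule, at the same minimum count, had a median log2 fold change of -1.42, with 2 called lower. Autosomal protein-coding genes at that count had a median of -0.08, with 8.08% of 8538 called. The 316 tested autosomal lncRNAs under that count had a median of -0.37, with 6.01% called. At the minimum itself, Gm20559 (100.5 counts on average), Gm48795 and Foxd2os (111 each) were just inside, and Gm5165 (97.1), Gm12992 (96.2) and Gm4316 (94.95) just outside.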

How the data were processed

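Estimated counts per gene, not normalized, were deposited by the authors for 3 MA-10 and 3 STARKO1 libraries. RNA was total RNA in stranded libraries, and the submitters' processing notes name STAR 2.6.1d, Partek and the mm10 build. The counting program's settings and its use of strand are not given in the sources used here, and non-whole values were present for 54.2% of the genes. Genes were matched to GENCODE vM21 (GRCm38) by symbol and chromosome, which placed all 70 lncRNAs, and the deposited stop was 1 base past the annotated end.

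Rounded to whole numbers, the counts were compared in R 4.3.3 with edgeR 4.0.16: filterByExpr, TMM scaling, the quasi-likelihood test and Benjamini-Hochberg adjustment over all 11939 genes tested, with a call at an adjusted p under 0.05. SE is the absolute log2 fold change over the square root of F. CPM are counts relative to the TMM-scaled library size, and log2 levels by library used CPM plus 0.1. At 14114351 to 19530062 counts per library, 3 counts are 0.129 to 0.264 CPM. In MA-10, where the median coefficient of variation of the lncRNAs was 43.9%, the spread between libraries limits precision more than depth. In STARKO1 that median was 8.44%, and the part of counting error in it was not measured. Shared sequence was measured in 31-base words over GENCODE transcripts, and it covers sequence alone, not reads. On simulated counts of 11803 genes, the test called 84.8% of genes with a 4-fold and 13.1% with a 2-fold change, and 5.83% of calls were false. All simulated libraries varied alike, with none set apart as MA-10 replicate 1 was. These rates therefore need not hold for the real libraries.

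Named lncRNAs are those called without overlap between the lines, members of the gene lists on nuclear architecture, regulatory, miRNA host and ribosomal repeat lncRNAs, the 5 with the highest mean CPM, the neighbors of these, and 3 genes on each side of the minimum count. The lncRNAs, lists and tests were chosen with earlier results of these data known. Same-numbered libraries of the lines had deviations correlated at -0.035, 0.091 and -0.016 and were not treated as pairs. Alternatives were DESeq2 1.42.0, other scalings and filters, removal of ribosomal repeat and 7SL genes, length offsets, a replicate block, other thresholds and leaving out each library. Tables and figures used Python 3.11.15, pandas 2.3.3, numpy 2.4.6 and matplotlib 3.10.9. Lipid, steroid and immunoblot data of the study were not used here.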

Additional observations from a re-analysis of the deposited data

How the results depend on the processing

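The number of calls moved with most choices, while the 8 called lncRNAs kept their direction under every alternative run. Upper quartile scaling and no filter on low counts called 6 lncRNAs each (829 of 11939 and 947 of 14774 genes). In both, 5430416N02Rik (edgeR adjusted p = 0.0527 and 0.0506) and Zfas1 (edgeR adjusted p = 0.0529 and 0.0519) missed the threshold. Without the ribosomal repeat and 7SL genes 7 were called (984 of 11926 genes). DESeq2 called 29 (7 higher and 22 lower), against 28.4% of all genes (3395). Library size alone called 2 lncRNAs, 1 higher and 1 lower (330 genes), and it moved the median of all genes from -0.05 to 0.38. The stricter filter on low counts left 5 calls, 4 lower (695 genes), and length offsets gave 2 higher. In edgeR with the replicate block, 26 lncRNAs and 3692 of 11939 genes had an unadjusted p under 0.05. After adjustment the block left 0 lncRNAs called, 0 higher and 0 lower, and 234 genes. The numbers do not pair the libraries, so this loss is no measure of weaker differences. Leaving out single libraries gave 0 to 54 called lncRNAs, 0 to 22 higher and 0 to 32 lower, and 89 to 7990 genes. MA-10 replicate 1 alone against STARKO1, added after the data were seen, called 28 lncRNAs (13 higher, 15 lower) and 5086 genes, with the spread taken from STARKO1 only and the lone library assumed to vary like it, so those calls compare 1 library and not the lines. A threshold of 0.01 left 1 call and one of 0.10 gave 29. The shares of all genes at these thresholds were not counted, so the lncRNAs cannot be set against them. A minimum mean count of 50 gave 108 lncRNAs with 13 called, and one of 200 gave 44 with 5 called, against 9.04% of all genes tested.

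Among the 19 named lncRNAs, the sign turned for some that were not called (as it did for others not named), namely for 2900097C17Rik with library size alone (0.19) and without MA-10 replicate 1 (0.23, down to -0.37 without others), for Pvt1 with length offsets (-0.071) and without MA-10 replicate 2 (-0.020, up to 0.097 without others), for AY036118 with the replicate block (0.40), without MA-10 replicate 2 (1.56, down to -1.66 without others) and with replicate 1 alone (0.99), for Gm26917 without MA-10 replicate 2 (-0.018, up to 1.79 without others) and with replicate 1 alone (-0.67), and for Gm20632 with replicate 1 alone (0.36). The cause of these changes was not tested. The floor of 3 counts covers counting error only, while the SD and SE also hold the spread between these libraries. Counts of short or repeated transcripts rest on how reads were shared between genes.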
